A study of Homo sapiens with 12 samples.

Results

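The MAGE (melanoma antigen) gene family was examined in K562 cells treated with a USP7 inhibitor. Its members were taken as the protein-coding genes whose symbol starts with MAGE, a letter from A to L and a digit. This rule found 35 of the 60609 genes listed in the count files, of which 26 were type I genes (12 MAGEA, 11 MAGEB and 3 MAGEC) and 9 were type II genes (4 MAGED, 2 MAGEE and 1 each of MAGEF, MAGEH and MAGEL). K562 is an established human erythroleukemic cell line from a chronic myeloid leukemia, and FT671 is a small molecule that inhibits the deubiquitinase USP7. RNA-seq libraries were available for 3 samples given DMSO, the solvent, and for 3 given 10 μM FT671, all collected after 48 h, with no other agent named for either group. The total number of counts ranged from 4555220 to 14250500 per library. A count of 3, taken as the floor of detection, corresponded to between 0.208 and 0.666 CPM (counts per 1000000 counts of the library), and this floor covers counting error only because the reads carried no molecular identifiers.

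MAGE proteins share a MAGE homology domain, through which many of them bind RING-type E3 ubiquitin ligases and alter which substrates are ubiquitinated. Type I genes lie on the X chromosome and are cancer-testis genes, normally restricted to germ cells, silenced elsewhere together with DNA methylation of their promoters, and often active again in tumors. Type II genes are expressed in many tissues. The link to USP7 is through MAGEL2, which joins TRIM27 and USP7 in a complex that regulates the WASH complex on retromer-coated endosomes.

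The identity of the cells was checked first. The summed level of 10 erythroid and K562 markers was between 1280 and 1320 CPM in the DMSO libraries and between 1150 and 1200 CPM in the FT671 libraries. GATA1, an erythroid transcription factor, had a median of 254 CPM over the 6 libraries, whereas HBE1 stayed low at a median of 0.725 CPM. Of 6 germ cell markers, 5 had no count in any library (DDX4, DAZL, TNP1, PRM1 and PRM2), and the summed level of the list was between 2.02 and 3.43 CPM, all of it from SYCP3. The lymphoid list (4 markers, MS4A1 at 0) summed to between 2.22 and 3.94 CPM, and the stromal list (3 markers, PDGFRA at 0) to between 2.11 and 2.91 CPM. The myeloid list (4 markers) summed to between 58.7 and 62.5 CPM with DMSO and to between 76.6 and 79.3 CPM with FT671, mostly from LYZ, while MPO and CD14 did not exceed 0.444 CPM. The part of these levels in the results was not tested. DMSO replicate 3 differed from the other DMSO libraries by a chi-square per degree of freedom of 7.55 and 8.73, against 2.94 between replicates 1 and 2, and calls that were lost or gained without it are given below.

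Because MAGE genes resemble each other, sequence shared between members decides what a count can say. MAGEA3, MAGEA6 and MAGEA12 lie in 1 cluster on the X chromosome, and their coding sequences are aligned below over coding positions 224 to 343 to show how few bases separate MAGEA3 from MAGEA6. The stretches (GENCODE release 44, hg38) are chrX:152701056-152701175 on the plus strand for MAGEA3, chrX:152767308-152767427 on the minus strand for MAGEA6 and chrX:152736385-152736504 on the plus strand for MAGEA12. The window was chosen for having the most positions at which the 3 genes are not all the same, so it is not a typical stretch. Over all 942 coding positions there were 81 of these. Capitals mark the 19 of 120 positions at which the 3 genes are not all the same.
MAGEA3: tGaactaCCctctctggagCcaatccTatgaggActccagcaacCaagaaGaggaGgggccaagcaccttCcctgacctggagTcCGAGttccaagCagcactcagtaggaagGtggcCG
MAGEA6: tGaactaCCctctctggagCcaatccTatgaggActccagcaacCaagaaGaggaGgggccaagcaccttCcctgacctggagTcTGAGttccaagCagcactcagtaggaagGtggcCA
MAGEA12: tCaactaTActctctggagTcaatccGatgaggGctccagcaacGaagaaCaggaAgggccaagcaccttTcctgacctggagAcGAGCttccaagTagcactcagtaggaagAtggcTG
Over the whole coding sequence of 942 bases, MAGEA3 and MAGEA6 differed at 18 positions and MAGEA3 and MAGEA12 at 74. Of all 75-base windows in the MAGEA3 transcript, 44.3% were also found in MAGEA6, whereas 0.2% of the MAGEA12 windows were found in MAGEA3. Reads of MAGEA3 and MAGEA6 can therefore be exchanged or lost, and their separate values are uncertain. The sharing was complete or nearly so for MAGEA2 and MAGEA2B (100%), MAGED4B (100%, with MAGED4) and MAGEA9 and MAGEA9B (91.7%). A count of 0 for MAGEA2B, MAGEA9, MAGED4 or MAGED4B thus cannot be read as absent expression.

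Promoters of 31 members were found in the RefSeq table (GRCh38.p14), each reaching from 250 bases before to 50 bases after the start used there. For MAGEA11 and MAGEC3 that start lay 23832 and 56350 bases from the GENCODE start of the gene. The bases before the start are printed for the type I gene with the highest level (MAGEB2), for the 2 type I genes with the largest rise under FT671 (MAGEC1 and MAGEC2) and for a type II gene that fell (MAGEF1), as these values are given below. Capitals mark CpG dinucleotides, the sites that DNA methylation modifies. The windows are chrX:30215313-30215562 on the plus strand for MAGEB2, chrX:141903644-141903893 on the plus strand for MAGEC1, chrX:142205291-142205540 on the minus strand for MAGEC2 and chr3:184712065-184712314 on the minus strand for MAGEF1.
MAGEB2: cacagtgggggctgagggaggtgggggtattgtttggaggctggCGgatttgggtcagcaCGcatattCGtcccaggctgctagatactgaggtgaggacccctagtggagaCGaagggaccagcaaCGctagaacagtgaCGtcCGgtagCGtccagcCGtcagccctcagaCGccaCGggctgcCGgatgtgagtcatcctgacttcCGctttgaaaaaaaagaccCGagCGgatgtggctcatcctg
MAGEC1: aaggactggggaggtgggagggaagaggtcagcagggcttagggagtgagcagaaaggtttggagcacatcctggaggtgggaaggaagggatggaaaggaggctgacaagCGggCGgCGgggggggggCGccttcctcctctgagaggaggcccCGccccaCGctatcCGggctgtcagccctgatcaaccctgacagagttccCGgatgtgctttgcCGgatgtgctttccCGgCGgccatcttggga
MAGEC2: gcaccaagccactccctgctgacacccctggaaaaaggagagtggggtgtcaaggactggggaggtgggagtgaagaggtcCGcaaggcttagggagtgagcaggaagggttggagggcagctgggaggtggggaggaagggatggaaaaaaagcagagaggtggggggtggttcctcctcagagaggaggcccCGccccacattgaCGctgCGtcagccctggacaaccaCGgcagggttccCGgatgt
MAGEF1: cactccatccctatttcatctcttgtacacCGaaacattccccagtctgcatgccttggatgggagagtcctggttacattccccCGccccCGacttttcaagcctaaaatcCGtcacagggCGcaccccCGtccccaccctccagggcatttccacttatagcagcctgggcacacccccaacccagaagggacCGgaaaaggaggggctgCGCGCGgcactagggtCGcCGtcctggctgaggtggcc
These 250 bases held 15 CpG in MAGEB2, 11 in MAGEC1, 6 in MAGEC2 and 12 in MAGEF1. In the full windows the median number of CpG was 10 over 23 type I promoters, 11 over 8 type II promoters and 14 over all 35116 promoters in the table. Among the type I genes with counts the number ranged widely, from 1 in MAGEB1 to 21 in MAGEB2, which are neighbors on the X chromosome. A single form of the ETS motif, CCGGAAG, was searched on both strands (CTTCCGG on the other). It was present in 1 of the 23 type I promoters (MAGEB6), in 2 of the 8 type II promoters (MAGED1 and MAGEF1) and in 10.3% of all promoters. Other forms were not counted, such as CCGGATG, which occurs in the printed bases of MAGEB2, MAGEC1 and MAGEC2. A match describes these letters only, and no methylation or binding was measured here.

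Counts in K562 cells came from a limited set of MAGE genes. Of the 35 members, 19 reached 3 counts in at least 1 library, 6 had some counts but fewer than 3 in every library, and 10 had none. Those 10 include MAGEA2B, MAGEA9, MAGED4 and MAGED4B, whose lack of counts cannot be read as absent expression, as given above. Enough counts for a test remained in 14 members (10 type I and 4 type II), and the other 21 (16 type I and 5 type II) fell below the filter on low counts. Levels between genes are given as CPM per kb of exon. MAGEB2, reported to act on stress granule formation, had the highest DMSO level of the tested members at 53.6 ± 1.4 CPM per kb (SD, n = 3). It was followed by MAGEA3 at 27.4 ± 1.95, MAGEA12 at 22.7 ± 2.04 and MAGEA6 at 20.1 ± 1.19 CPM per kb, of which only MAGEA12 and MAGEA6 had overlapping ranges as neighbors in this order. The type II gene MAGEF1 followed at 16.3 ± 0.506 CPM per kb. Its place above MAGED2 depends on the length used, since over the length of 1 transcript per gene, an alternative chosen after seeing the data, MAGED2 had 17.4 and MAGEF1 16.3 CPM per kb. MAGEC2 (15.3 ± 0.537), MAGED2 (12.1 ± 0.988), MAGEB1 (11.7 ± 0.642) and MAGEC1 (8.34 ± 1.04) came next in CPM per kb, and the ranges of MAGED2 and MAGEB1 overlapped. MAGEA1, MAGEH1, MAGED1, MAGEB16 and MAGEA8 were lower, from 5.47 to 0.617 CPM per kb, with no overlap between neighbors.

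**Figure D1:**
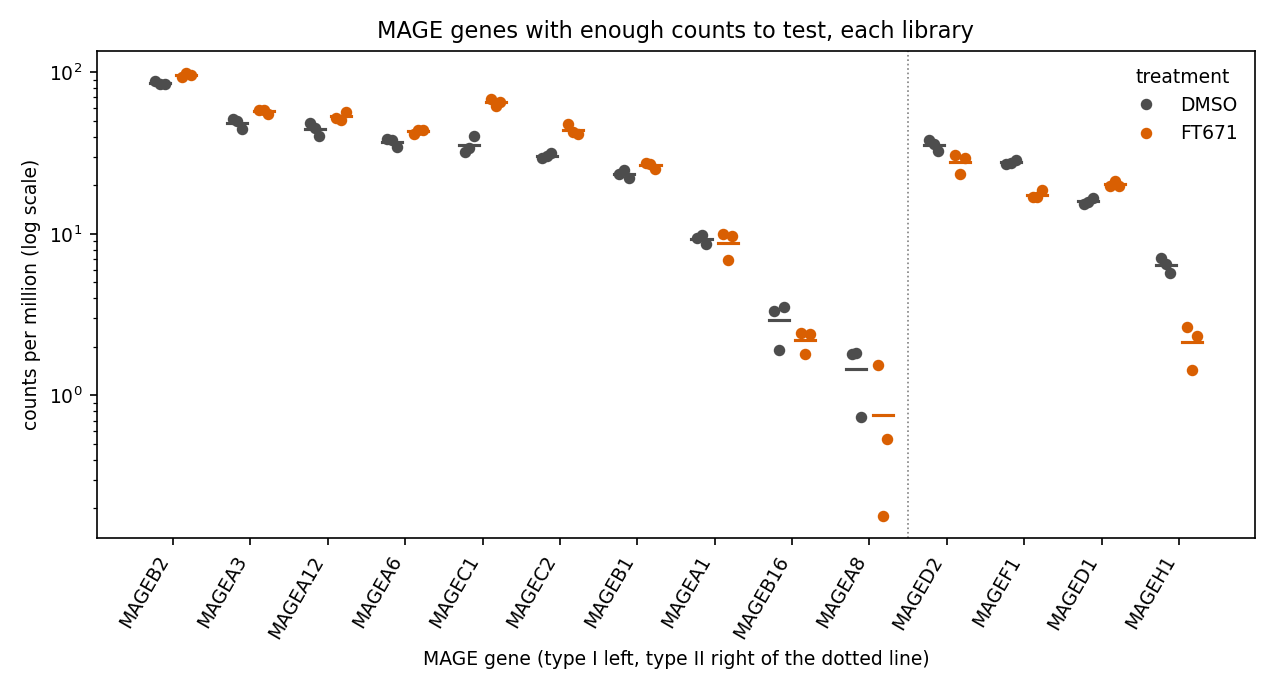
Expression of the 14 tested MAGE genes in each library, as CPM on a log axis, with type I genes on the left and type II genes on the right of the dotted line. Points are libraries (3 with DMSO, 3 with FT671) and lines are means, and the FT671 points lie wholly above the DMSO points for 8 genes and wholly below for 3.

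To ask how the family responded to USP7 inhibition, both treatments were contrasted with edgeR's quasi-likelihood test across 13895 genes, with Benjamini-Hochberg adjustment and a threshold of 0.05. Among the 10 type I genes tested, 3 rose (MAGEC1, MAGEC2 and MAGEA12), none fell and 7 did not pass. Among the 4 type II genes tested, MAGEH1, MAGEF1 and MAGED2 fell and MAGED1 rose. Of all genes tested, 23.6% were called higher and 26.5% lower. The median log2 fold change was 0.19 over the 10 type I genes and −0.50 over the 4 type II genes, beside −0.01 over all genes tested. The study's methods set an adjusted p of 1e-05 with DESeq2. Applied here to edgeR's test, that threshold was passed by 1 member, MAGEC1, and by 5.92% of all genes. Without the filter on low counts, MAGEH1 and MAGEF1 passed it too (edgeR adjusted p = 8.22e-09 and 4.22e-06). The share of all genes passing 1e-05 in that fit was not taken, so these passes have no background beside them. Every FT671 library lay above every DMSO library for 8 of the 14 members and below for 3, beside 26.8% and 30.3% of all genes tested. In these bulk samples, fewer expressing cells and less RNA per cell cannot be told apart. According to the study, the RNA-seq samples came from separate experiments, and the labels give each sample only a replicate number.

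**Figure D2:**
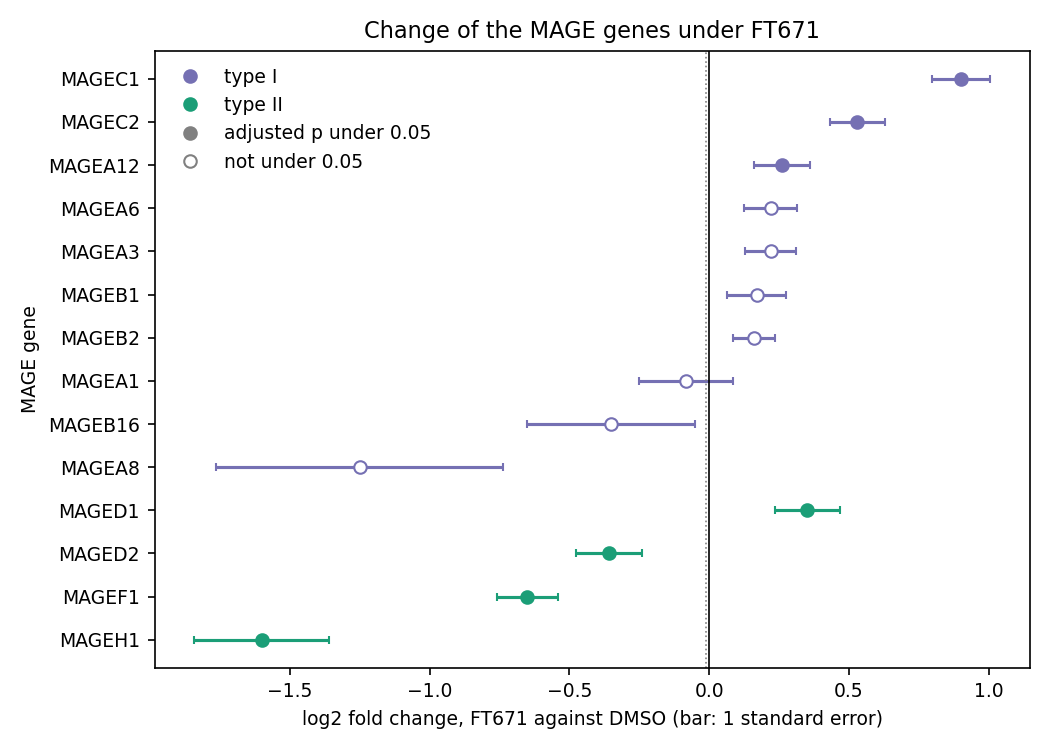
Log2 fold change (FT671 against DMSO) of the 14 tested MAGE genes, with bars of 1 standard error, colored by type, and filled where the adjusted p was under 0.05. Type I genes spread from −1.25 (MAGEA8, open) to 0.90 (MAGEC1, filled), and 3 of the 4 type II genes lie below 0.

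The MAGEC genes showed the largest type I rise. MAGEC1, a cancer-testis antigen also known as CT7 (chrX:141903894-141909374), measured 32.0, 34.0 and 40.5 CPM in DMSO replicates 1 to 3 and 68.6, 62.2 and 65.2 CPM in FT671 replicates 1 to 3. All 3 FT671 libraries were above all DMSO libraries, and the log2 fold change was 0.90 (SE 0.104, adjusted p = 9.77e-06 by edgeR's quasi-likelihood test), a 1.86-fold rise. MAGEC2 lies 292968 bases further along the X chromosome (chrX:142202342-142205290) and encodes a protein that binds the ligase TRIM28. It measured 29.5, 30.2 and 31.6 CPM with DMSO and 47.5, 42.8 and 41.6 CPM with FT671. The groups did not overlap, and MAGEC2 rose by 0.53 on the log2 scale (SE 0.0994, edgeR adjusted p = 0.000578). The third member, MAGEC3, had no count in any library.

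Of the 5 MAGEA genes tested, only MAGEA12 passed. MAGEA3 and MAGEA6 encode nearly the same protein, which with TRIM28 targets the kinase AMPK for degradation. MAGEA3 (chrX:152698767-152702347) measured 51.5, 49.6 and 44.7 CPM with DMSO and 58.6, 58.3 and 54.9 CPM with FT671. MAGEA6 (chrX:152766136-152769716) measured 38.4, 37.8 and 34.4 CPM with DMSO and 41.5, 43.7 and 44.1 CPM with FT671. In both genes the FT671 libraries were the higher ones without overlap, and the log2 fold change was 0.22 in each, which did not pass (edgeR adjusted p = 0.0558 for MAGEA3 and 0.0704 for MAGEA6). When the counts of both were added up, an alternative chosen after seeing the data, the log2 fold change was 0.22 with an edgeR adjusted p of 0.0277.

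MAGEA12 (chrX:152733757-152737669) lies between MAGEA3 and MAGEA6. Its level was 48.3, 45.1 and 40.3 CPM with DMSO and 52.4, 50.7 and 56.9 CPM with FT671. The groups were separate, yet by only a small gap, and MAGEA12 rose by 0.26 on the log2 scale (SE 0.0989, edgeR adjusted p = 0.0443). This call was lost in 10 of 14 alternative fits, including those without any 1 of the libraries other than DMSO replicate 1, with edgeR or DESeq2 adjusted p up to 0.187. The annotation also places the non-coding gene CSAG4 on the same strand across exons of MAGEA12, and CSAG4 is not among the genes with counts here, so reads of the pair cannot be separated. MAGEA1, the founding member of the family (chrX:153179284-153183880), measured 9.49, 9.89 and 8.69 CPM with DMSO and 9.99, 6.86 and 9.65 CPM with FT671. Its groups overlapped, and the log2 fold change was −0.083 (SE 0.169, edgeR adjusted p = 0.705).

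MAGEA8 (chrX:149881141-149885835) was scarce, with 26, 20 and 4 counts in the DMSO libraries and 7, 1 and 6 counts in the FT671 libraries. In CPM this was 1.80, 1.83 and 0.739 with DMSO and 1.55, 0.18 and 0.536 with FT671, so the groups overlapped. The log2 fold change of −1.25 (SE 0.514) did not pass (edgeR adjusted p = 0.0575). MAGEA8 passed without the filter on low counts (edgeR adjusted p = 0.0324), where 12.8% of 31316 genes were called lower, and also without DMSO replicate 3 (0.0144) or without FT671 replicate 1 (0.0164).

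The MAGEB genes include the member with the most counts, MAGEB2, but gave no call. MAGEB2 (chrX:30215563-30220089) measured 88.7, 84.6 and 85.0 CPM with DMSO and 92.8, 99.0 and 96.6 CPM with FT671. The groups did not overlap, and the log2 fold change was 0.16 (SE 0.075, edgeR adjusted p = 0.0932). Its neighbor MAGEB1 (chrX:30243715-30252040), whose protein binds the ligase TRIM31, measured 23.3, 24.7 and 22.2 CPM with DMSO and 27.3, 27.2 and 25.1 CPM with FT671. Here too the FT671 libraries were all higher, with a log2 fold change of 0.17 (SE 0.106, edgeR adjusted p = 0.207). MAGEB1 shares exon positions on the same strand with MAGEB4, which had no count. MAGEB16 (chrX:35798342-35803772) measured 3.32, 1.92 and 3.51 CPM with DMSO and 2.44, 1.80 and 2.41 CPM with FT671. Its groups overlapped, and the log2 fold change was −0.35 (SE 0.301, edgeR adjusted p = 0.359).

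Among the type II genes, MAGEH1 fell most. MAGEH1 (chrX:55452127-55453566) encodes a small MAGE protein that binds the neurotrophin receptor NGFR. It measured 7.13, 6.50 and 5.73 CPM with DMSO and 2.67, 1.44 and 2.32 CPM with FT671, from 12, 8 and 26 counts in the latter. All FT671 libraries were below all DMSO libraries, and MAGEH1 fell by 1.60 on the log2 scale (SE 0.241, edgeR adjusted p = 9.39e-05), to 0.33 of the DMSO level. MAGEF1 on chromosome 3 (chr3:184710364-184712064), the only autosomal member with counts, encodes a protein that pairs with the ligase NSMCE1 and directs it to MMS19, a factor for iron-sulfur cluster delivery. It measured 27, 27.4 and 28.7 CPM with DMSO and 16.9, 16.8 and 18.6 CPM with FT671. There was no overlap, and MAGEF1 fell by 0.65 on the log2 scale (SE 0.109, edgeR adjusted p = 0.000242).

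The 2 MAGED genes with counts moved in opposite directions. MAGED2 (chrX:54807599-54816015), mutated in a transient antenatal form of Bartter syndrome, measured 38.3, 36.1 and 32.5 CPM with DMSO and 30.6, 23.6 and 29.5 CPM with FT671. MAGED2 fell by 0.36 on the log2 scale (SE 0.118, edgeR adjusted p = 0.0205) with no overlap of the groups. MAGED1 (chrX:51803007-51902354), also called NRAGE, which binds NGFR and the ligase PJA1, measured 15.2, 15.8 and 16.6 CPM with DMSO and 19.8, 21.1 and 19.8 CPM with FT671. Its groups were separate, and MAGED1 rose by 0.35 on the log2 scale (SE 0.116, edgeR adjusted p = 0.0204). Both calls depended on single libraries. That of MAGED2 was lost without DMSO replicate 1 (edgeR adjusted p = 0.0911), DMSO replicate 2 (0.0518) or FT671 replicate 2 (0.116). That of MAGED1 was lost without DMSO replicate 1 (edgeR adjusted p = 0.0871), FT671 replicate 2 (0.0698) or FT671 replicate 3 (0.053), and in the fit without a filter on low counts (0.0988). The MAGED1 call was also lost with DESeq2's Wald test.

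The 21 members below the filter gave few counts. MAGEA4, which binds the DNA repair ligase RAD18, had 13, 6 and 6 counts with DMSO and 2, 1 and 3 with FT671, and it overlaps the antisense gene MAGEA4-AS1, which had 9 counts in all. The strand setting of the counting is not given in the sources used here, so reads of this pair cannot be told apart. In the fit without a filter its log2 fold change was −1.52 (edgeR adjusted p = 0.101). MAGEB17 (28 counts in all, overlapping a non-coding gene on the opposite strand), MAGEA2 (21), MAGEB10 (21) and MAGEA9B (15) were also at a few counts per library, and none of them passed in that fit. The counts of MAGEA2 and MAGEA9B may be too low, because 100% and 91.7% of their windows are shared with MAGEA2B and MAGEA9. MAGEB6, MAGEE1, MAGEA10, MAGEB18, MAGEA11 and MAGEB3 had between 6 counts and 1 count over all libraries. No count was found for MAGEL2, the partner of TRIM27 and USP7, or for MAGEA2B, MAGEA9, MAGEB4, MAGEB5, MAGEB6B, MAGEC3, MAGED4, MAGED4B and MAGEE2. For MAGEL2 this allows a level of up to 0.208 CPM in DMSO replicate 1, the deepest library, and 0.666 CPM in FT671 replicate 1, the shallowest. Family members with other names were also measured. NSMCE3 (MAGEG1), a subunit of the SMC5/6 complex, fell by 0.32 on the log2 scale (SE 0.115, edgeR adjusted p = 0.034), from 23.5, 21.0 and 23.5 CPM with DMSO to 19.1, 17.1 and 18.3 CPM with FT671. Necdin (NDN) and TRO were below the filter with 36 and 5 counts in all.

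The total level of each class was also compared. Summed over all 26 type I genes, the level was 329, 321 and 314 CPM with DMSO and 405, 395 and 400 CPM with FT671. Without MAGEB2, the type I gene with the most counts, the sum was 236 ± 5.83 CPM with DMSO and 304 ± 8.49 CPM with FT671 (SD, n = 3). Summed over all 9 type II genes it was 87.8, 85.9 and 83.6 CPM with DMSO and 70.0, 63.0 and 70.3 CPM with FT671. Neither class overlapped between the treatments. The ratio of type I to type II counts was between 3.74 and 3.76 in the DMSO libraries and between 5.68 and 6.27 in the FT671 libraries. Reads lost between near-identical members are missing from these sums, which are descriptions given with no test.

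**Figure D3:**
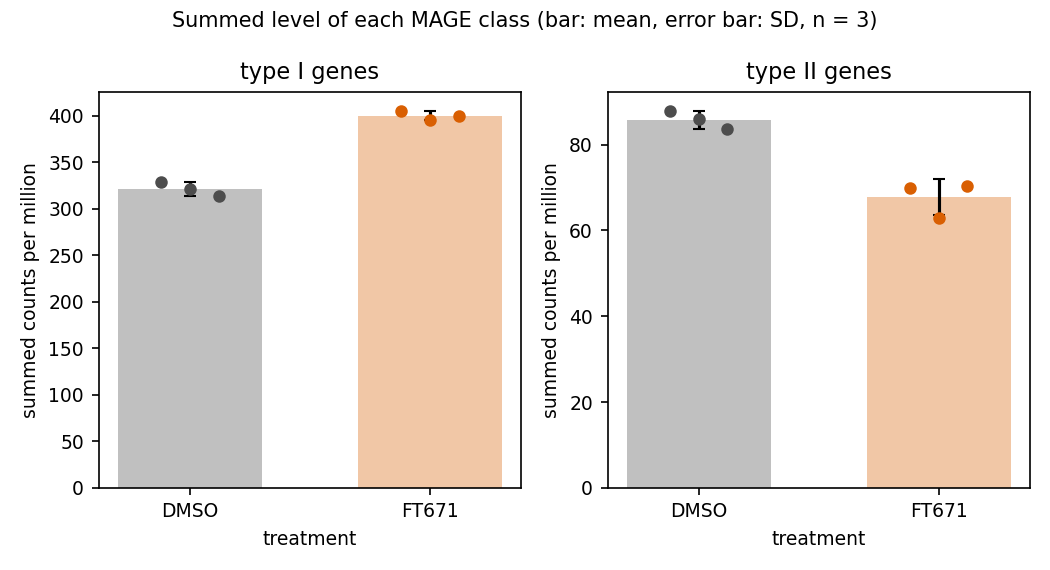
Summed CPM of the 26 type I and the 9 type II MAGE genes, with bars at the mean of 3 libraries, error bars of 1 SD and a point for each library. The type I sum was 322 ± 7.59 with DMSO and 400 ± 5.37 with FT671, and the type II sum 85.8 ± 2.13 and 67.8 ± 4.15.

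Since all type I genes are X-linked and germline-restricted, they were set beside other genes of that kind. Of 428 other X-linked genes tested, 110 were higher and 79 lower (25.7% and 18.5%), with a median log2 fold change of 0.077. A list of 102 other cancer-testis genes had 60 with no count and 22 that could be tested, of which 8 were higher, 3 lower and 11 did not pass. All 8 that rose are X-linked, out of 13 X-linked genes of the list that were tested (median log2 fold change 0.39). Several of the genes with no count are copies in families such as GAGE, whose reads can be lost. For these, no count cannot be read as absent expression. Sequence shared within this list was not measured. GAGE1, of a family of near-identical copies, measured 3.95, 3.30 and 3.51 CPM with DMSO and 9.33, 10.8 and 9.92 CPM with FT671, a rise of 1.47 on the log2 scale (SE 0.179, edgeR adjusted p = 1.57e-05). PAGE1 rose by 1.14 (SE 0.219) and PAGE5 by 0.73 (SE 0.113) on the log2 scale, with edgeR adjusted p-values of 0.000652 and 0.000122. CT55 (0.67), GAGE2A (0.69), CTAG2 (0.45), PASD1 (0.31) and CSAG1 (0.23) were the other 5 that rose, in log2 fold change. The 3 that fell are autosomal genes, namely the chromatin ATPase ATAD2 (−1.18), ACRBP (−0.82) and PRAME (−0.16).

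**Figure D4:**
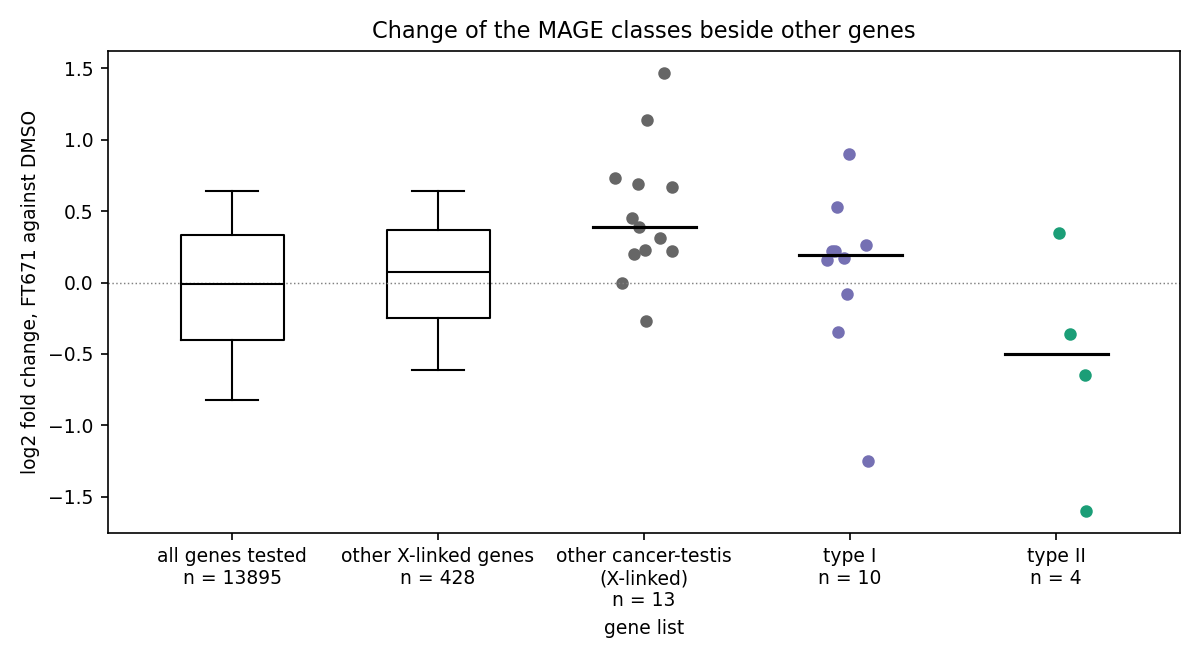
Log2 fold change (FT671 against DMSO) of the tested type I and type II MAGE genes beside other X-linked cancer-testis genes, other X-linked genes and all genes tested. Points are genes with a line at the median, boxes span the quartiles with whiskers at the 10th and 90th percentiles, and the medians are 0.19, −0.50, 0.39, 0.077 and −0.01 in that order.

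Regulators of DNA methylation, which keeps type I genes silent in most tissues, were read from the same fit. DNMT1, the maintenance methyltransferase, measured between 429 and 449 CPM with DMSO and between 477 and 489 CPM with FT671, and its log2 fold change of 0.13 did not pass (SE 0.0641, edgeR adjusted p = 0.0982). UHRF1, which recruits DNMT1 to newly replicated DNA, rose by 0.33 (SE 0.0918, edgeR adjusted p = 0.00878), and DNMT3A, a de novo methyltransferase, by 0.46 on the log2 scale (SE 0.106, edgeR adjusted p = 0.00241). Of the TET enzymes, which oxidize methylated cytosine, TET3 fell by 0.90 (SE 0.078, edgeR adjusted p = 7.01e-07) and TET1 rose by 0.36 on the log2 scale (SE 0.102, edgeR adjusted p = 0.0101). DNMT3B and TET2 did not pass.

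The proteins that MAGE proteins bind, or that belong to their complexes, were followed through a list of 28 genes. Of the 26 tested, 7 rose, 8 fell and 11 did not pass, with a median log2 fold change of 0.045. Beside the 23.6% higher and 26.5% lower of all genes, the list thus lay near the background, at 26.9% and 30.8%. Of USP7, the ubiquitin ligases with NSMCE1, and the ligase receptor DCAF12, 5 of 7 tested genes fell and none rose. This and the other subgroups of the list were not planned, and NSMCE1 is counted again in the SMC5/6 complex below. USP7, the target of FT671 and partner of MAGEL2 and TRIM27, measured 119, 107 and 131 CPM with DMSO and 29.3, 34.1 and 35.8 CPM with FT671, and its transcript fell by 1.82 on the log2 scale (SE 0.104, edgeR adjusted p = 2.66e-08). TRIM28, the ligase of MAGEA3, MAGEA6 and MAGEC2, measured 708, 717 and 592 CPM with DMSO and 337, 271 and 295 CPM with FT671. TRIM28 thus fell by 1.16 on the log2 scale (SE 0.0938, edgeR adjusted p = 3.73e-07), while MAGEC2 rose and MAGEA3 did not pass. TRIM27 measured 109, 95.2 and 101 CPM with DMSO and 83.3, 74.5 and 73.5 CPM with FT671 and fell by 0.41 (SE 0.0856, edgeR adjusted p = 0.00125). LNX1, the ligase bound by MAGEB18, fell by 0.38 on the log2 scale (SE 0.114, edgeR adjusted p = 0.0131), and DCAF12, a substrate receptor that targets MAGEA3 and MAGEA6 for degradation, fell by 0.28 (SE 0.0827, edgeR adjusted p = 0.0108). PJA1 did not pass, and TRIM31 had no count.

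**Figure D5:**
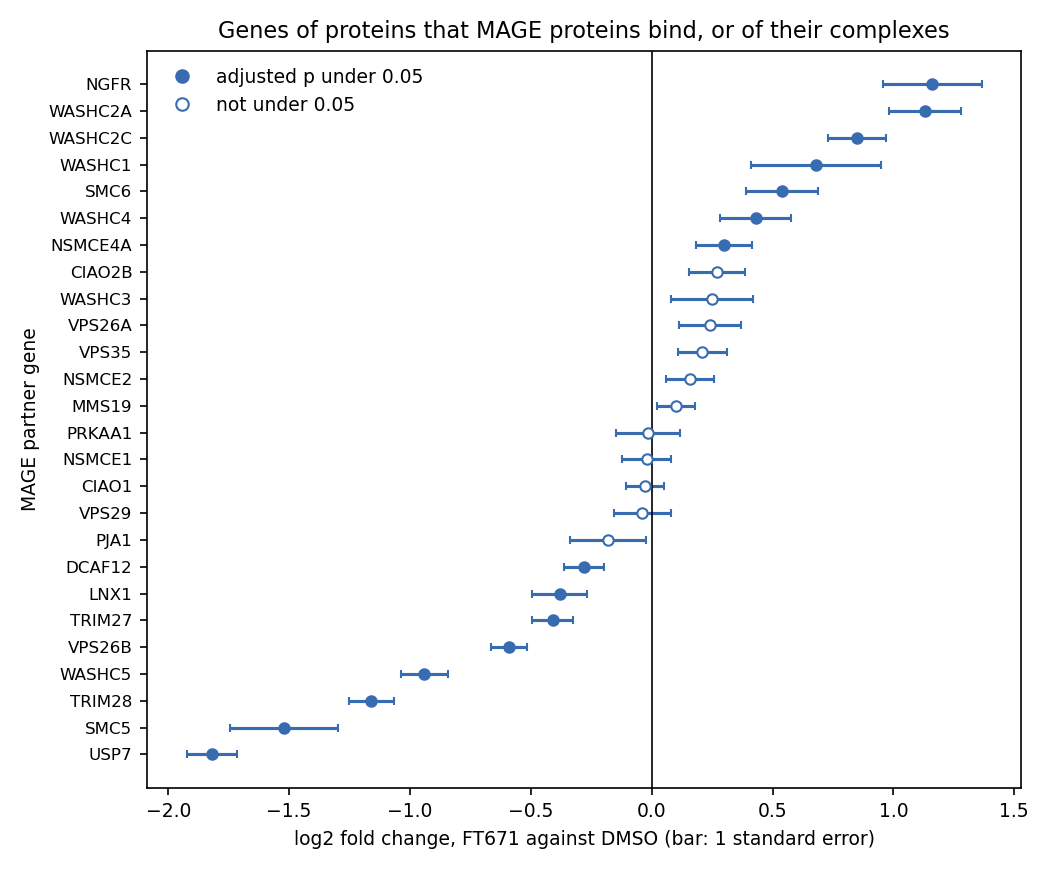
Log2 fold change (FT671 against DMSO) of the 26 tested genes of the MAGE partner list, with bars of 1 standard error, and filled points where the adjusted p was under 0.05. USP7 lies lowest at −1.82 and NGFR highest at 1.16.

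The complexes on which these ligases act were split. Of the 6 WASH complex genes, WASHC1, WASHC2A, WASHC2C and WASHC4 rose, WASHC5 fell and WASHC3 did not pass. WASHC2A and WASHC2C are near-identical copies and WASHC1 has many related copies, so their separate values are uncertain. Of the 4 retromer genes VPS26B fell and the other 3 did not pass. In the SMC5/6 complex, to which NSMCE3 belongs, SMC5 measured 10.4, 9.34 and 15.2 CPM with DMSO and 4.44, 3.25 and 4.02 CPM with FT671, and fell by 1.52 on the log2 scale (SE 0.223, edgeR adjusted p = 7.65e-05). SMC6 and NSMCE4A rose, NSMCE1, the ligase of MAGEF1, and NSMCE2 did not pass, and EID3 was below the filter. NGFR, bound by MAGED1 and MAGEH1, measured 4.09, 6.69 and 4.25 CPM with DMSO and 9.55, 11.5 and 12.2 CPM with FT671. NGFR rose by 1.16 on the log2 scale (SE 0.205, edgeR adjusted p = 0.000368), as MAGED1 rose and MAGEH1 fell. MMS19, the substrate of MAGEF1 and NSMCE1, did not pass, and neither did its partners CIAO1 and CIAO2B or the AMPK subunit PRKAA1.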

How the data were processed

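The authors mapped paired-end reads of ribosomal RNA-depleted libraries with STAR (two-pass mode, hg38), and each deposited file holds 1 raw read count per gene. The STAR version and annotation release are not given in the sources used here. The ChIP-seq samples were not used here. Versioned gene identifiers were matched to GENCODE release 44 (60295 of 60609). The members and lists were chosen with earlier results of these data known. In R 4.3.3, counts were filtered with filterByExpr, scaled by TMM and tested with edgeR 4.0.16 (glmQLFit, glmQLFTest, FT671 against DMSO, no covariate, two-sided, Benjamini-Hochberg over all genes tested). The SE is the log2 fold change divided by the square root of F. CPM use TMM-scaled totals. On simulated counts with 195 changed genes among 13888 tested, 192 were recovered with 13 false calls. The simulation gave every gene the same dispersion, and far fewer genes changed in it than were called here. Its changes were larger than those of every called member except MAGEH1, so it does not show how well smaller changes are recovered. Alternatives were DESeq2 1.42.0 (size factors, Wald test), library totals, no filter and at least 10 counts in every library. Further alternatives were an exon length correction (loess in R), a replicate block and leaving out each library. Named genes were every member, plus up to 8 genes of each list (those bound by a MAGE protein or with the largest change). Genes outside this rule were named after their values were seen. Sequences were handled with Python 3.11.15 and Biopython 1.88.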

Additional observations from a re-analysis of the deposited data

How the results depend on the processing

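MAGEC1, MAGEC2, MAGEH1 and MAGEF1 kept their call at 0.05 in every alternative fit that tested them, with log2 fold changes of 0.82 to 0.98, 0.44 to 0.57, −1.71 to −1.42 and −0.78 to −0.62. The number of type I genes lower (0) became 1 without the filter on low counts and with the exon length correction, in each case MAGEA8. The number of type I genes higher (3) was 1 at 1e-05, 2 with library totals alone, without the filter, with the Wald test, with both exon length corrections and without any 1 library other than DMSO replicate 1, and 4 with DESeq2's size factors. The number of type II genes higher (1) was 0 without the filter, with DESeq2's Wald test and at 1e-05, where the number lower (3) was also 0. The type II median log2 fold change moved to −0.69 without the filter (MAGEE1 entered) and to −0.36 with at least 10 counts in every library (MAGEH1 left). When single libraries were left out, the number of type I genes lower ranged from 0 to 1, type II genes higher from 0 to 1, partner genes higher from 4 (without FT671 replicate 2) to 8, and other cancer-testis genes higher from 5 (without DMSO replicate 1, FT671 replicate 2 or FT671 replicate 3) to 9. MAGEA1 turned from −0.083 to values between −0.18 and 0.054, the last without FT671 replicate 2. The summed type I level was 1.24 times that of DMSO, and 1.29 times without MAGEB2, with MAGEC1 and MAGEC2 kept in both sums. MAGED2 had 0.742 of the DMSO level of MAGEF1 per kb of exon, but 1.29 times its level in CPM and 1.07 times per kb of 1 transcript, and 8 of 14 ranks of level differed between CPM per kb and CPM. The causes were not tested beyond the genes named. Whether a replicate number marks a shared experiment is not given in the labels, and the deviations of samples with the same number correlated by 0.115, −0.0605 and 0.14, so the samples were not treated as paired. With a replicate block, 4 type I genes were higher, MAGEA3 being added (edgeR adjusted p = 0.036), and 1 type II gene was higher and 3 lower. Of the other lists, the block added CIAO2B (edgeR adjusted p = 0.00846) and VPS35 (0.0335) and removed WASHC1 (0.103), PASD1 (0.0633) and PRAME (0.0559). Members with few counts, such as MAGEA8, are limited by the depth of the shallow libraries.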

Other observations

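The nearest tested genes of the members that passed were also read. These genes, other than the members and cancer-testis genes, were named after their values were seen. PAGE5 lies 228019 bases from MAGEH1 on one side and rose by 0.73 on the log2 scale. USP51 lies 31050 bases away on the other side and fell by 0.69 (edgeR adjusted p = 0.0468), while MAGEH1 between them fell. Around MAGEF1, POLR2H at 341768 bases rose by 0.40 (edgeR adjusted p = 0.00103) and VPS8 at 100079 bases rose by 0.35 (edgeR adjusted p = 0.0189), so MAGEF1 fell between genes that rose. MAGED2 lies between GNL3L, which rose by 0.51 (edgeR adjusted p = 6.6e-05), and APEX2, which fell by 0.54 (edgeR adjusted p = 0.000476). The nearest tested genes of the other members that passed gave fewer calls. LDOC1 beside MAGEC1, RN7SKP189 beside MAGEC2, GSPT2 and TSPYL2 on either side of MAGED1 and CSAG3 beside MAGEA12 did not pass (edgeR adjusted p = 0.79, 0.176, 0.41, 0.63 and 0.605). CSAG1, a cancer-testis gene 22 bases from MAGEA12, rose by 0.23 (edgeR adjusted p = 0.0437), close to the 0.26 of MAGEA12.

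The divergent non-coding genes at the starts of MAGEA3 and MAGEA6 were measured separately from them. MAGEA3-DT, 67 bases away, measured 6.58, 7.51 and 4.99 CPM with DMSO and 7.33, 6.13 and 6.97 CPM with FT671. MAGEA6-DT, 48 bases away, measured 1.45, 0.733 and 1.29 CPM with DMSO and 1.33, 0.722 and 0.804 CPM with FT671. Both had overlapping groups and did not pass (edgeR adjusted p = 0.819 and 0.489).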
